A study of Mus musculus with 7 samples.

Results

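The clustered protocadherins are cell-surface adhesion proteins whose genes stand in 3 neighbouring groups, alpha, beta and gamma, on mouse chromosome 18. They were taken here as the genes whose Ensembl identifier carries a mouse symbol starting with Pcdha, Pcdhb or Pcdhg in GENCODE M21, which gives 58 genes, 14 in alpha, 22 in beta and 22 in gamma. Of these, 17 stand in the authors' deposited table of 3389 genes that passed an adjusted p of 0.05 in the comparison of shKAP1 with control neural stem cells. The other 41 have no value, because the table stops at that threshold. The genes were picked with this comparison already known, so its values are given as a description, without a test of the group.

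The study grew neural stem cells taken from the mouse brain's subventricular zone in medium with EGF and FGF-2 at 20 ng/mL each. One group of 4 samples received short hairpin RNA against KAP1 by nucleofection, and the other group of 3 samples is labelled as control cells. The labels give no strain, age, sex or hairpin sequence, and do not say what the controls received or whether samples came from separate cultures, so a p-value reflects the spread among these samples alone, which may be technical. KAP1, the product of Trim28, is a corepressor that zinc finger proteins bring to chromatin, where it assembles histone methylation and heterochromatin proteins.

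In the alpha and gamma clusters each gene has its own promoter and its own large first exon, which encodes the extracellular cadherin repeats, the membrane span and part of the cytoplasmic tail. That exon is spliced to a set of constant exons used by every gene of the cluster, so that all members share the end of their protein and the 3′ end of their mRNA. Genes of the beta cluster are single exons with no constant part. In neurons, single promoters are switched on in a partly random way with the help of CTCF and cohesin, whereas the C-type genes at the ends of alpha and gamma are used more widely, and the resulting proteins let a neuron tell its own branches from those of its neighbours.

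The table holds no column per sample, so neither the value of a single library nor its depth is known, and the standard error (SE) of the authors' DESeq2 fit stands in for replicate error. Trim28 itself stood at a log2 value of -1.17 (SE 0.053) by the authors' deposited table, which leaves 44.5% of the control level. The table names no reference group, and minus signs were taken to mean lower in shKAP1 because the targeted gene carries one. By identifier, 26.3% of 12905 genes with an adjusted p are listed, 12.6% higher and 13.7% lower. Of the stem cell markers checked, Vim, Fabp7, Slc1a3 and Nes were listed at the authors' mean normalized counts of 96600 to 193157, whereas Sox2, Pax6, Gfap and Prom1 were not listed and could not be checked.

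Most listed members belong to the gamma cluster. All 12 listed gamma genes and all 3 listed beta genes rose in shKAP1, and both listed alpha genes fell. As shares, 54.5% of gamma, 13.6% of beta and 14.3% of alpha genes were listed, and the 17 of 58 genes together make 29.3%, against the background of 26.3% over tested genes. By direction, 15 of the 58 genes were listed as higher and 2 as lower. The backgrounds by direction are 12.6% for higher genes, which bears on gamma and beta, and 13.7% for lower genes, which bears on alpha. The beta and alpha shares are near theirs. Differences between the clusters were not tested. How many of the 58 received an adjusted p is unknown, so these shares and the background have different denominators. The median log2 fold change over listed genes was 0.25 in gamma, 0.36 in beta and -0.29 in alpha. Listing needed a log2 change of 0.11 at the SE of Pcdhgc3, 0.26 at that of Pcdhb17 and 0.34 at that of Pcdha12. Unlisted genes have no value, so these medians partly follow from the threshold and are not compared between clusters. The median over all 3389 listed genes, -0.13, is the middle of 1621 higher and 1768 lower genes and not a typical change. The changes were small: 11 of the 17 stayed under the median change of all listed genes, 1.22-fold, and none reached 2-fold.

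**Figure D1:**
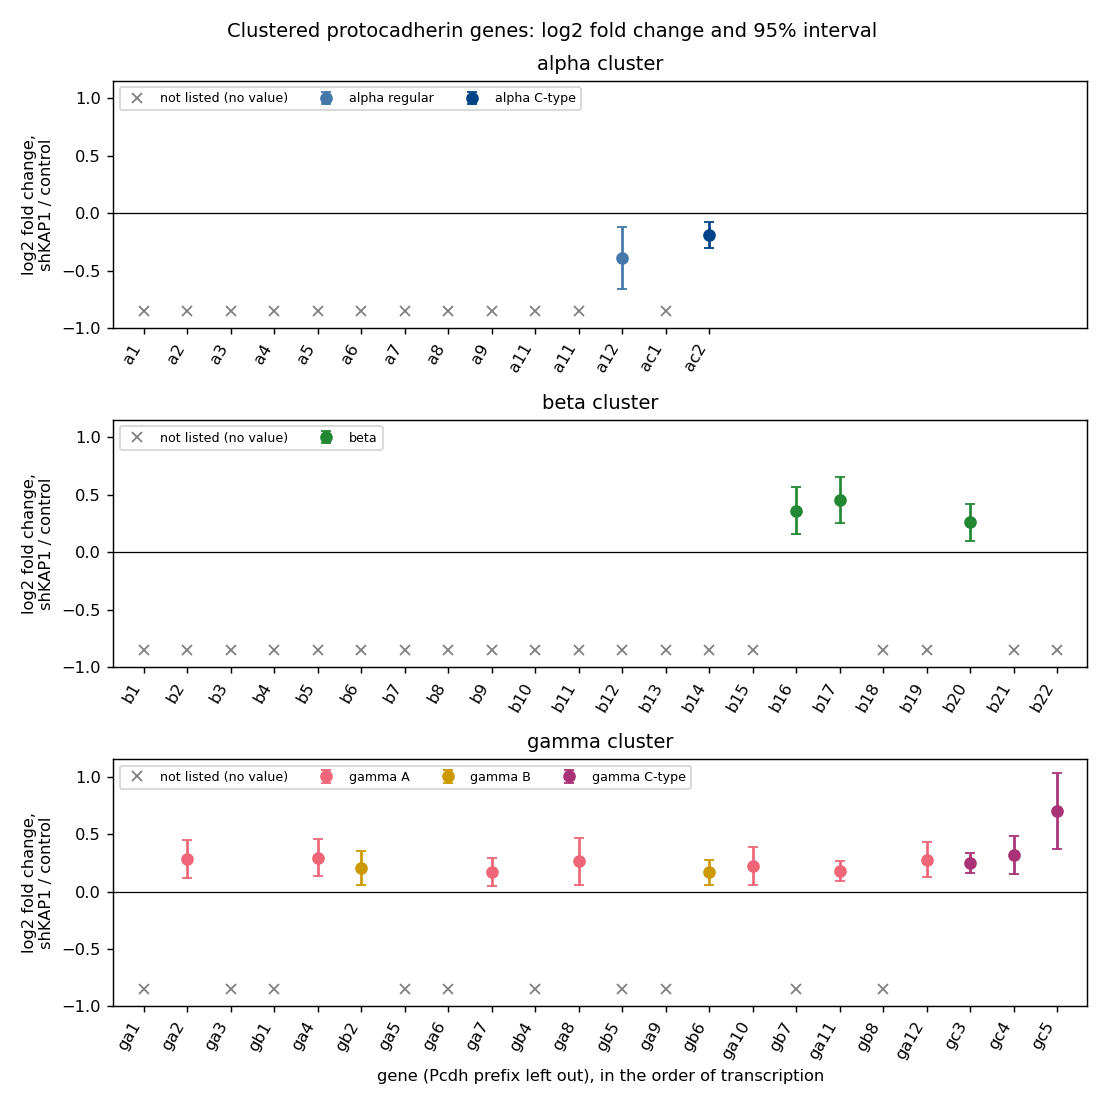
Log2 fold change of shKAP1 over control for each clustered protocadherin gene in the order of transcription, 1 panel per cluster, from the authors' deposited table. Points are values of listed genes, bars are 95% intervals from the SE, and grey crosses mark genes not listed, whose height carries no value; the symbol Pcdha11 is repeated because 2 identifiers carry it. Listed gamma and beta genes lie above 0 and both listed alpha genes below it, and Pcdhgc5 stands highest.

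The listed gamma genes cover each of the subtypes. The gamma A and gamma B genes alternate along the cluster and differ in the sequence of their first exons, and the gamma C genes follow at its 3′ end. All 3 gamma C genes were listed, against 7 of 12 gamma A and 2 of 7 gamma B genes, and all were higher. The shares are 100%, 58.3% and 28.6%, against 26.3% listed and 12.6% higher over tested genes. As all of these genes were higher, 12.6% is the background that matches. The gamma B share rests on 2 of 7 genes and was not tested against it, and unlisted members may not have been tested. Median log2 fold changes were 0.32 for gamma C, 0.26 for gamma A and 0.19 for gamma B. With so few genes, and with reads shared between them, these medians are a description of the subtypes and not a ranking.

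Pcdhgc3 was by far the most abundant listed member. Its protein is known to bind Axin1 and to dampen Wnt signalling. The authors' mean normalized count was 92331, which places it at rank 21 among the 3389 listed genes, and it rose by 0.25 log2 units (SE 0.042, adjusted p = 1.54e-07, DESeq2) by the authors' deposited table. That is a 1.19-fold rise with a 95% interval of 1.12 to 1.26. It holds 81.9% of the summed mean counts of the 12 listed gamma genes and 79.2% of those of all 17 listed members. Pcdhgc3 lies at 37806364 to 37841873 on the plus strand of chromosome 18 in GRCm38, the build used for all positions here.

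Pcdhgc5, the last gene of the cluster, had the largest change. In neurons its protein has been found to bind GABA-A receptors. It rose by 0.70 (SE 0.17, adjusted p = 0.000340, DESeq2), as log2 values of the authors' deposited table, or 1.62-fold with a 95% interval of 1.29 to 2.04, at a mean normalized count of 3410.3. It was the only listed member whose interval lay wholly beyond 1.2-fold. Its SE was also the largest of the 17, against a smallest of 0.042. The interval of Pcdhgc5, from 0.37 to 1.03 on the log2 scale, lay above those of Pcdhgb2, Pcdhga7, Pcdhgb6, Pcdhga11 and Pcdhgc3 and overlapped those of the other 6 listed gamma genes. The gene spans 37819513 to 37841873.

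Pcdhgc4, the isoform that interneurons need to survive in the mouse, lies between them. It rose by 0.32 (SE 0.083, adjusted p = 0.00109, DESeq2), as log2 values of the authors' deposited table at a mean normalized count of 2707. Its interval of 0.16 to 0.48 overlapped those of both other gamma C genes. Apart from Pcdhgc5, the intervals of the 11 listed gamma genes have a stretch in common, from 0.17 to 0.26 on the log2 scale. Overlap or separation of intervals is not a test of a difference between genes, and these genes share reads. Neither sameness nor difference among the listed gamma genes, Pcdhgc5 included, is therefore read from it.

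Among gamma A genes, whose proteins carry out homophilic adhesion, the largest change was that of Pcdhga4 at 0.29 (SE 0.081, adjusted p = 0.00222, DESeq2), as log2 values of the authors' deposited table. Pcdhga2 stood at 0.28 (SE 0.084) and Pcdhga12, the last gamma A gene before the C-type genes, at 0.28 (SE 0.077) by the authors' deposited table. Pcdhga8 at 0.26 (SE 0.10), Pcdhga10 at 0.22 (SE 0.084), Pcdhga11 at 0.18 (SE 0.044) and Pcdhga7 at 0.17 (SE 0.063) complete the gamma A genes by the authors' deposited table. Their intervals overlap one another. Pcdhga8 was the member nearest to the threshold, with an adjusted p of 0.0463 (DESeq2) by the authors' deposited table. At its SE a change of 0.26 was needed to be listed at all. The gamma A genes without a listing were Pcdhga1, Pcdhga3, Pcdhga5, Pcdhga6 and Pcdhga9.

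Both listed gamma B genes had changes at the low end of the cluster. Pcdhgb2 stood at 0.21 (SE 0.076, adjusted p = 0.0278, DESeq2) and Pcdhgb6 at 0.17 (SE 0.055, adjusted p = 0.0127, DESeq2), as log2 values of the authors' deposited table. Pcdhgb1, Pcdhgb4, Pcdhgb5, Pcdhgb7 and the gene Pcdhgb8, annotated as a polymorphic pseudogene, were not listed. Along the cluster, 5 of the first 11 gamma genes and 7 of the last 11 were listed. These are 45.5% and 63.6%, all of them higher, against 26.3% of tested genes listed and 12.6% listed as higher. The difference between these parts was not tested. Listed genes are interspersed with unlisted ones through the A and B part, and the final 4 genes, Pcdhga12 and the C-type genes, were all listed.

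The 3 listed beta genes lie in the 3′ part of their cluster. They make 13.6% of its 22 genes, near the background of 12.6% for higher genes. Beta proteins form part of the adhesive code but carry no constant tail. Pcdhb16 stood at 0.36 (SE 0.10, adjusted p = 0.00326, DESeq2), Pcdhb17 at 0.46 (SE 0.10, adjusted p = 0.000138, DESeq2) and Pcdhb20 at 0.26 (SE 0.084, adjusted p = 0.0104, DESeq2), as log2 values of the authors' deposited table. None of Pcdhb1 to Pcdhb15 was listed, and 3 of the last 7 genes were. That cut falls at the first listed gene, and unlisted genes may not have been tested. Nothing is therefore read from the position. Pcdhb17 had the second largest change of the 17 members, 1.37-fold, and its interval of 0.25 to 0.66 overlapped those of both other beta genes. The beta genes are also the lowest in count apart from Pcdha12, with the authors' mean normalized counts of 294, 442 and 619.9. Pcdhb16 and Pcdhb17 are neighbours at 37477814 to 37483038 and 37484795 to 37489454, and Pcdhb20 lies at 37504264 to 37507822.

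The alpha cluster gave the members with a fall. Pcdhac2, the C-type isoform that serotonin neurons use to space out their axons in the mouse, stood at -0.19 log2 units (SE 0.059, adjusted p = 0.00780, DESeq2) by the authors' deposited table at a mean normalized count of 2157. Pcdha12, the last of the regular alpha genes, stood at -0.39 (SE 0.14, adjusted p = 0.0203, DESeq2) by the authors' deposited table at a mean normalized count of 268. Their intervals of -0.31 to -0.074 and -0.65 to -0.12 overlap. Pcdhac1, the other alpha C-type gene, and the remaining 11 alpha genes were not listed. Of the 5 C-type genes of both clusters, 3 were thus higher, 1 lower and 1 not listed. Pcdhac2 lies at 37143503 to 37187657 and Pcdha12 at 37020149 to 37187657.

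Levels can be compared between genes only per length of transcript. Per kb of the longest annotated coding transcript, Pcdhgc3 had a mean normalized count of 19699, against 719 for Pcdhgc5, which came next. Pcdhgb6 at 543, Pcdhgc4 at 539, Pcdhga11 at 520.3 and Pcdhga7 at 514 normalized counts per kb followed, and Pcdhac2 stood at 366. The other gamma genes were at 183 to 316 per kb, the beta genes at 56.3 to 174 per kb and Pcdha12 lowest at 50.2 per kb. These are means over the libraries of both groups with no spread given, so neighbours in this order could not be told apart or shown to be equal.

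**Figure D2:**
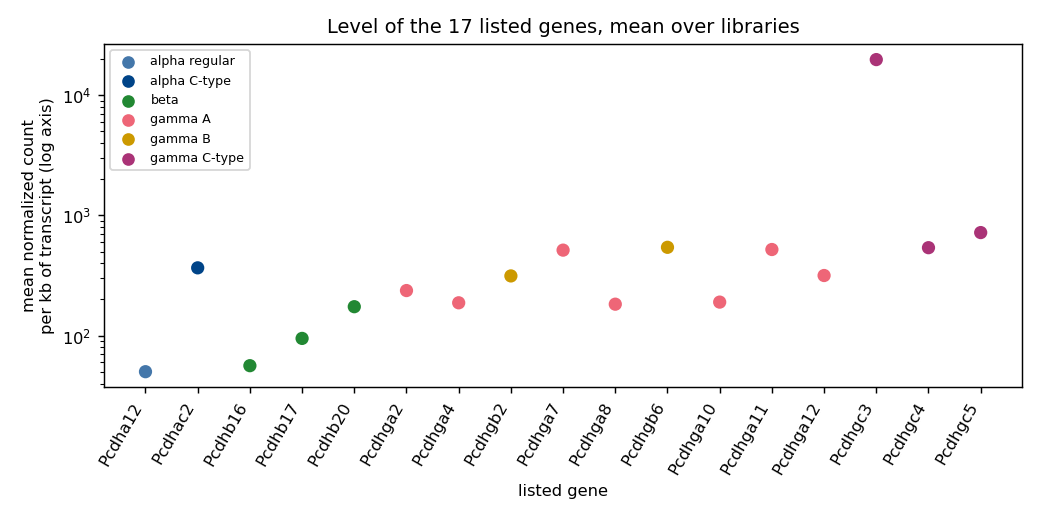
Mean normalized count per kb of transcript for the 17 listed clustered protocadherin genes, on a log axis, averaged by the authors over libraries, with no error available. Pcdhgc3, at 19699, stands far above the others, which lie between 50.2 and 719.

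Shared exons limit what the values of single members mean. In the annotation all 14 alpha transcripts end in the same 3 constant exons of 59, 89 and 2712 bases, and all 22 gamma transcripts in 3 exons with the same starts, of 59, 89 and up to 1971 bases. In Pcdhga2, Pcdhgb1, Pcdhgb4, Pcdhga9 and Pcdhgb8 the last of these ends slightly earlier, at 37841870, which leaves 2116 constant bases in place of 2119. The gamma constant exons begin at 37825021, 37833265 and 37839903, after the last variable exon. The first exon makes up 45.1% to 51.4% of an alpha transcript and 54.1% to 58.3% of a gamma transcript, so reads from the remainder fit every member of the cluster. The authors' tool kallisto divides such reads among the transcripts they fit, guided by the reads that fit only one. Values of genes in the same cluster are therefore not independent of each other, and the 12 gamma genes are not 12 separate observations of a rise.

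To see how much of each transcript identifies its gene, the share of 31-base words found in no other annotated gene was counted. The median share was 35.1% in alpha, 44.6% in gamma and 88.2% in beta, so the listed beta genes, at 88.4% to 93.7%, rest on sequence that is mostly their own. Every word of the first exon was unique for Pcdhac1, Pcdhac2, Pcdhgc4, Pcdhgc5 and the single exon of Pcdhb1. The rise of Pcdhgc5 and Pcdhgc4 and the fall of Pcdhac2 thus come from genes whose variable exon has no close copy. In Pcdhga4 only 57.6% of first-exon words were unique, and 39.1% occurred in Pcdhgb1, which was not listed. Among gamma genes the median share was 42.1% for listed and 47.3% for unlisted ones.

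Antisense transcripts add to this. Annotated genes on the minus strand lie over the first exon of 13 members, 7 of them listed. All first-exon words of Pcdhga10 occur in such a gene, Gm26672, which also holds 51.9% of those of Pcdhga11, and BC037039 holds 58.4% of those of Pcdhgc3. Counting the own strand only, the unique share of the whole transcript rises from 0.617% to 54.5% for Pcdhga10, from 26.7% to 55.4% for Pcdhga11 and from 23.2% to 55.1% for Pcdhgc3. The libraries keep strand, but whether the quantification used it is not given in the sources used here, so the values of these genes are uncertain to that extent. None of the 8 antisense genes was listed.

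**Figure D3:**
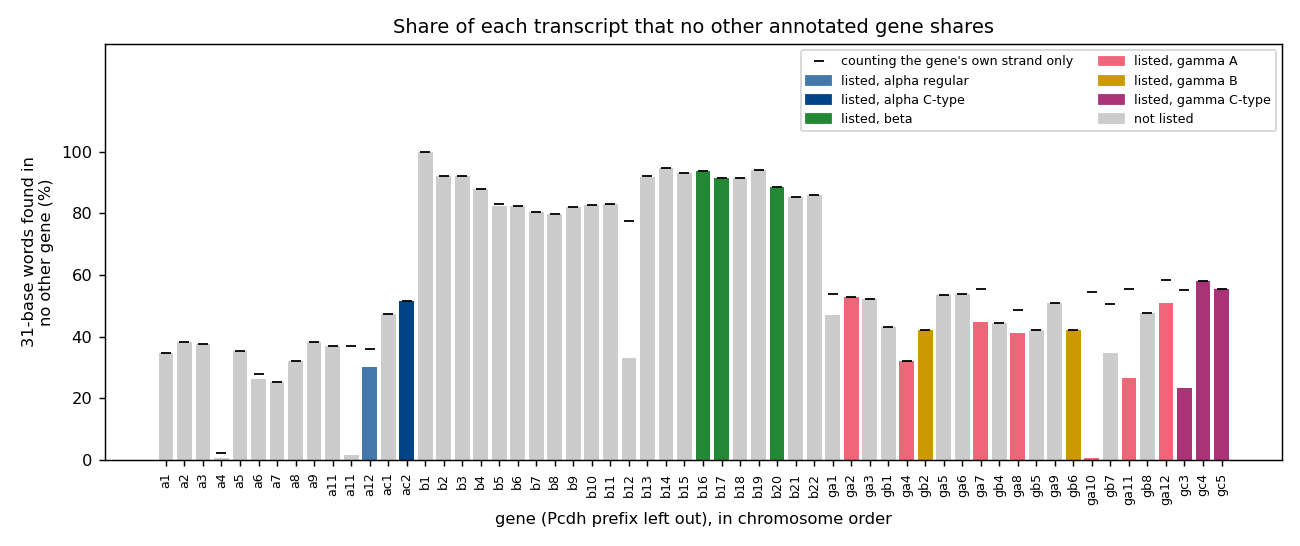
Share of the 31-base words of each gene's longest coding transcript that occur in no other annotated gene on either strand (bars), and the same counting the gene's own strand only (black dashes). Coloured bars are listed genes and grey bars genes not listed. Beta genes stand highest, with a median of 88.2%, and Pcdhga10 falls to 0.617% when both strands count.

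Base composition ran alongside direction in this table. With all listed genes divided by transcript GC content into 5 bins of like size, 25.1% were higher in bin 1, of lowest GC, and 70.1% in bin 5. Gamma genes had GC contents of 49.5% to 55.6%, alpha genes of 46.5% to 49.8% and beta genes of 39.1% to 50.5%. The listed gamma genes fell in bins 3 and 4, whose shares of higher genes were 45.6% and 61.3%, and the listed alpha genes in bins 2 and 3, at 37.1% and 45.6%. The 3 listed beta genes, all higher, lie in bin 1, at 43.0% to 44.7% GC. The part of base composition in the direction of the members was not tested.

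The chromosome around the clusters did not move one way. Of 38 protein-coding genes whose whole span lies within 1 Mb, 5 were higher, 4 lower and 29 not listed. That is a share of 23.7% against the background of 26.3%. Long gene models that run from alpha to gamma were left out. By the same rule the count within 500 kb was 4 of 30, or 13.3%, without Pfdn1, whose span crosses that limit. Upstream of alpha, Pura at -0.32 and Igip at -0.36 were lower, and Cystm1 at 0.30, Pfdn1 at 0.16 and Hbegf, an EGF receptor ligand, at 0.62 were higher, as log2 values of the authors' deposited table. Downstream of gamma, the histone deacetylase gene Hdac3 at -0.23 (SE 0.045) and Rell2 at -0.80 (SE 0.29) were lower, and the ubiquitin ligase gene Rnf14 at 0.25 and Ndfip1 at 0.14 were higher by the authors' deposited table. Diaph1, on the other strand, ends 1.73 kb beyond the last gamma exon, with its start further away. It was not listed, nor were Slc25a2 and Taf7, which lie between beta and gamma.

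Other protocadherins and cadherins were listed in both directions. Of 12 non-clustered protocadherin genes, which have no shared constant exons, Pcdh9 was higher at 0.18 (SE 0.054) and Pcdh18 lower at -0.38 (SE 0.12) by the authors' deposited table. Both Pcdh1 and Pcdh12, which lie within 1 Mb of the gamma cluster, were not listed. Of 49 other cadherin superfamily genes, 3 were higher and 2 lower, or 10.2% in all, and the 2 of 12 non-clustered genes make 16.7%. The background is 26.3% of genes with an adjusted p, whereas these lists count all annotated genes whether tested or not, so nothing is read from the lower shares. Cdh13, a cadherin without a cytoplasmic tail, stood at 0.33 (SE 0.052), Cdh19 at 0.23 (SE 0.059) and N-cadherin, Cdh2, at 0.093 (SE 0.036) by the authors' deposited table, and Cdh6 at -0.26 and Dsc1 at -0.72 were lower there.

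Genes of chromatin and loop factors, taken here as possible regulators of the clusters, were listed only as lower. The list mixes loop factors with silencing factors, so its direction has no single meaning for the clusters. Of 30 such genes, 8 were not listed and the 22 others were lower, a share of 73.3% against a background of 13.7% for lower genes. Their median log2 fold change was -0.23. Trim28 is on this list although it was targeted, and the list was written with earlier results known, so the count is a description.

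Among the cohesin genes, whose ring-shaped product holds enhancer and promoter of the clusters together, Rad21 fell by 0.38 (SE 0.055, adjusted p = 1.66e-10, DESeq2) and Smc3 by 0.21 (SE 0.030, adjusted p = 3.22e-10, DESeq2), as log2 values of the authors' deposited table. Smchd1, which silences clustered protocadherin genes in the mouse, fell by 0.38 (SE 0.046, adjusted p = 7.51e-14, DESeq2) by the authors' deposited table. The maintenance DNA methyltransferase gene Dnmt1 fell by 0.31 (SE 0.051) and the lamin B receptor gene Lbr by 0.37 (SE 0.063) by the authors' deposited table. Chosen after their values were seen, Ctcf stood at -0.22 (SE 0.064), Setdb1, a histone methyltransferase that works with KAP1, at -0.16 (SE 0.046) and the de novo methyltransferase gene Dnmt3a at -0.23 (SE 0.053) by the authors' deposited table. Dnmt3b, which methylates clustered protocadherin promoters in the early embryo, was not listed, nor were Mau2, Wapl, Wiz, Atf7ip, Rest, Tet2 and Tet3. Cohesin, Dnmt1 and Uhrf1 also serve dividing cells. The proliferation genes Mki67 at -0.55 (SE 0.052) and Top2a at -0.45 (SE 0.043), picked from no list, were lower by the authors' deposited table. Their part in the lower values of these regulators was not tested.

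**Figure D4:**
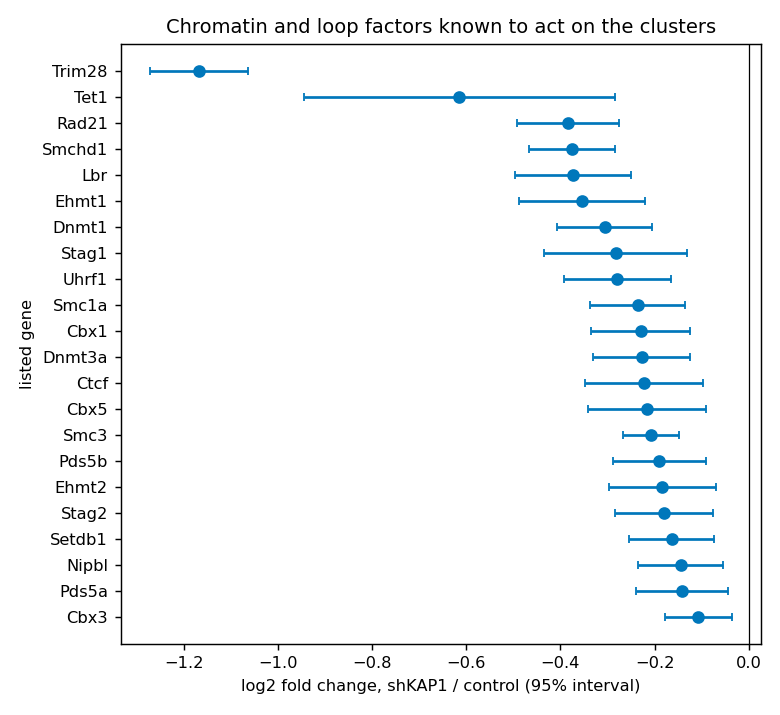
Log2 fold change of shKAP1 over control with 95% intervals for the 22 listed genes of the list of 30 cluster regulators, from the authors' deposited table. All lie below 0, from -0.11 for Cbx3 to -1.17 for Trim28, the targeted gene.

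Partners of the proteins showed no common direction. Of 30 genes for proteins that bind, cut or signal from clustered protocadherins, 4 were higher, 4 lower and 22 not listed, or 26.7% against 26.3%. The kinase gene Prkca, at 0.37 (SE 0.090), and Cyfip2 of the actin-regulating WAVE complex, at 0.29 (SE 0.070), were higher by the authors' deposited table, as was Aph1a of the gamma-secretase complex, at 0.14 (SE 0.034). Abi2, also of the WAVE complex, stood at -0.27 (SE 0.066), beta-catenin, Ctnnb1, at -0.15 (SE 0.030) and Rac1 at -0.12 (SE 0.038) by the authors' deposited table. The focal adhesion kinase genes Ptk2 and Ptk2b, which the constant tails hold in check, and Axin1, the partner of Pcdhgc3, were not listed.

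**Figure D5:**
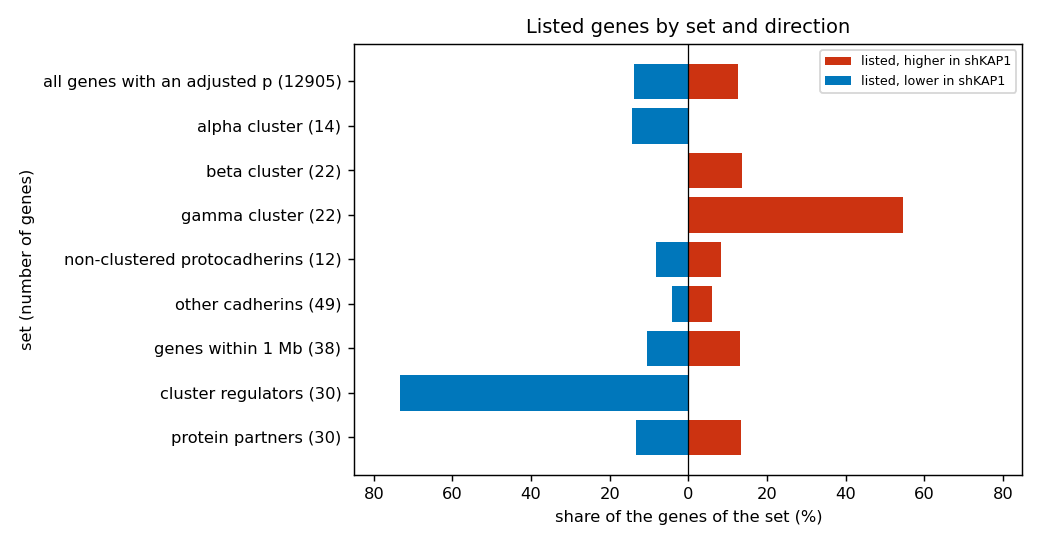
Share of genes listed as higher (red, to the right) and lower (blue, to the left) in shKAP1 in each set, with the number of genes of the set in brackets. The first bar counts genes that received an adjusted p and the others count annotated genes, so the denominators differ. The gamma cluster stands at 54.5% higher and the regulators at 73.3% lower, and the other sets lie near or under the first bar.

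Clustered protocadherins are expressed by neurons and glia, so markers of these cells are set beside the members. Of 8 stem cell markers 4 were higher and none lower, and the median of those 4 was 0.43 log2 units. Over all tested genes 12.6% were higher and 13.7% lower, and the marker lists, which count untested genes too, are too short to be read against those shares. Of 9 neuroblast and neuron markers 2 were lower, Dcx at -0.62 (SE 0.18) and Map2 at -0.11 (SE 0.038), by the authors' deposited table, and none was higher. The oligodendrocyte lineage gave Olig1 at 0.11 and Olig2 at 0.20 of 8 markers, the astrocyte list Aldh1l1 at 0.29 of 4, the ependymal list Foxj1 at 0.59 of 3 and the mural and fibroblast list Acta2 at 1.03 of 5 by the authors' deposited table. None of 4 microglia and 3 endothelial markers was listed, which does not show that they were absent. Fewer cells of a type and less RNA per cell cannot be told apart in such bulk samples, and the part of cell makeup in the values of the members was not tested.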

How the data were processed

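RNA was measured in 4 shKAP1 and 3 control samples, grouped by library name. Libraries were poly(A)-selected and strand-specific, per the labels' protocols. Trim Galore 0.4.4, DESeq2, kallisto and the build GRCm38 appear in the submitters' processing notes. Not given in the sources used here are the annotation, the model and the libraries fitted.

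The authors deposited 1 table without columns per sample. Its columns, per the file headers, are a mean normalized count (a signal averaged by the authors), a log2 fold change with SE, a signed fold, the Wald statistic (a score), and raw and adjusted p-values. Each Wald statistic equalled the log2 fold change divided by its SE within 6.39e-14. The number of genes with an adjusted p, 12905, was recovered from adjusted p times rank divided by p, which gave it within 0.01 in 85.2% of lines. The step and the word count were tested on simulated data.

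Nothing was refitted: calls are the authors' DESeq2 adjusted p under 0.05, and the planned fits to counts per sample were not possible. Intervals of 95% are the value ± 1.96 SE. Identifiers were matched to GENCODE M21 without version, 3388 of 3389. M21 gives the symbol Pcdha11 to 2 identifiers, and RefSeq lists a gene Pcdha10 that M21 lacks by symbol. Words of 31 bases came from the M21 transcript sequences, and GC content is the median over a gene's transcripts. Depth per library is unknown. Python 3.11.15 and pandas 2.3.3 were used.

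The members and lists were chosen with earlier results of these data known. Named genes were all listed members, non-clustered protocadherins and genes within 1 Mb, and up to 6 of each other list by adjusted p. Ctcf, Setdb1, Dnmt3a, Mki67 and Top2a were named outside this rule.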

Additional observations from a re-analysis of the deposited data

How the results depend on the processing

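Alternatives needing counts per sample (other tools, low-count filters, leaving out replicates) were not run. No paired analysis was possible because the deposited values are not given by library. The others tighten the limit and can only lower a count. At an adjusted p under 0.01, the members higher were 9 and lower 1, with 1 alpha and 7 gamma genes, 4 of gamma A and 0 of gamma B. There, partners numbered 5, other cadherins 3 and genes within 1 Mb 5. With a 2-fold minimum, 0 members remained in either direction and in each cluster and subtype. The non-clustered protocadherins, partners, other cadherins and neighbouring genes also came to 0, and the regulators to 1, Trim28. At the Bonferroni limit over 12905 genes, 1 member higher was left, Pcdhgc3 (1 gamma gene, 1 gamma C), with 0 lower, 0 alpha, 0 beta, 0 gamma A and 0 gamma B. With their whole span within 500 kb, the neighbours listed were 4 of 30 (13.3%), against 9 of 38 (23.7%) within 1 Mb. The regulators lower at an adjusted p under 0.01 were 20. A mean normalized count of at least 100 kept all 17 members. Mean counts per library are unknown, so what depth limits could not be computed.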

Other observations

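The annotation holds 3 protein-coding gene models, Gm42416, Gm37013 and Gm37388, that start in the alpha cluster and are spliced to gamma constant exons. Gm42416 holds 96.2% of the first-exon words of Pcdha4, whose whole transcript is 0.488% unique. None of these models was listed, and neither was Pcdha4. The clusters are separated by 77.3 kb between alpha and beta and by 137 kb between beta and gamma. The Pcdhgc3 count ranks 21 among listed genes, whereas Pcdhgc5, the next listed member, ranks 1503.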
